A study of Mus musculus with 3 samples.

Results

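Microexons are exons of only a few codons or less. Those described here were exonic parts of 3 to 27 bases that belonged to 1 gene, touched no other part of that gene, were neither its first nor its last part, and were covered by at least 20 reads in each of 3 libraries. Of 469293 exonic parts in the deposited table, 54341 were 3 to 27 bases long, 47971 of these belonged to 1 gene, 2152 touched no other part, 1605 were also inner parts, and 487 in 405 genes had the reads. They are called isolated microexons below, because short parts that adjoin a longer one are shifted exon ends rather than exons of their own.

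The libraries came from whole hearts of 12-week-old mice, 1 per genotype. The homozygote and the heterozygote carried the Rbm20 I538T point mutation, made with Cas9 in C57BL/6 zygotes, on both alleles or on 1 allele, and the wild-type carried it on neither. Rbm20 encodes an RNA-binding protein of heart and skeletal muscle that represses exons of titin and of other muscle genes, and the changed residue lies in its RNA-recognition motif. The labels do not say whether a library held RNA of 1 mouse or of several. No difference between genotypes therefore has a replicate, no test across mice was possible, and every interval given is a 95% interval of the read counts. These intervals cover counting error only, since the reads carry no molecular identifiers and copies made by PCR are not independent. Other ages were not analysed here.

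A microexon adds or removes a handful of amino acids when its length is a multiple of 3, and shifts the reading frame when it is not. Exons this short leave little room for both splice sites to be bound at the same time and depend on elements in the flanking introns. They are best known from neurons, where SRRM4 promotes their inclusion, and heart and skeletal muscle include a set of their own in proteins of the cytoskeleton, of the Z-disc and of membrane traffic.

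The sequences below show coding microexons with a PSI of the homozygote at least 20 points from that of the wild-type. PSI, percent spliced in, is the share of transcripts that hold the exon. It was computed from the reads that support inclusion and the reads whose junction skips the part, each divided by the number of positions it can arise from. The microexon stands in capitals between the 12 bases of spliced transcript on either side, 5′ to 3′, from GENCODE M21 transcripts, with positions of GRCm38.

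Dctn1, 21 bases (chr6:83187764-83187784, plus strand): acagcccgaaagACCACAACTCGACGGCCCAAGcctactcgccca
Sptan1, 15 bases (chr2:30014158-30014172, plus strand): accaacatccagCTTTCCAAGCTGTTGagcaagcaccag
Clasp2, 18 bases (chr9:113860120-113860137, plus strand): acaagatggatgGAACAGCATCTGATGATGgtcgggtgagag
Ptk2, 9 bases (chr15:73211987-73211995, minus strand): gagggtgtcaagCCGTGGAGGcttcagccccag
Fnbp1, 15 bases (chr2:31044882-31044896, minus strand): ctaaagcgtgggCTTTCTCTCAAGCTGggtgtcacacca
Ttn, 27 bases (chr2:76867883-76867909, minus strand): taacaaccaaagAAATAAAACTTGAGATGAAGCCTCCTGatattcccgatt
Stim2, 24 bases (chr5:54110116-54110139, plus strand): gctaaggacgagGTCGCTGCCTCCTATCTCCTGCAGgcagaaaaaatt
Plekha5, 18 bases (chr6:140537006-140537023, plus strand): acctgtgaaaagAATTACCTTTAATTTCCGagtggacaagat
Tmem245, 24 bases (chr4:56922387-56922410, minus strand): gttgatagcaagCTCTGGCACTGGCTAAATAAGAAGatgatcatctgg

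The next set holds coding microexons in which the heterozygote stood at least 20 points from the wild-type, together with that of Pdlim5, in which the 3 libraries were ordered by genotype.

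Nbr1, 19 bases (chr11:101560433-101560451, plus strand): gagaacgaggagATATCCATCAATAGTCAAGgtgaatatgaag
Mybpc3, 3 bases (chr2:91124275-91124277, plus strand): gatgagtggcagCAAgtacatcttcga
Cacna2d1, 21 bases (chr5:16341990-16342010, plus strand): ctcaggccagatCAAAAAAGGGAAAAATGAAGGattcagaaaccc
Ank2, 24 bases (chr3:127052226-127052249, minus strand): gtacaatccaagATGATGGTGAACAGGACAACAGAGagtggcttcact
Dnm1, 12 bases (chr2:32323179-32323190, minus strand): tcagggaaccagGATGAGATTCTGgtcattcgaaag
Ap1g1, 9 bases (chr8:109830613-109830621, plus strand): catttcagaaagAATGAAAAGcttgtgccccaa
Pdlim5, 15 bases (chr3:142306284-142306298, minus strand): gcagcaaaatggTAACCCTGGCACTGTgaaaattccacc

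The microexons shown range from the CAA triplet of Mybpc3 to the 27 bases of Ttn. All but that of Nbr1, with 19 bases, have a length that is a multiple of 3.

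Depth was alike in the 3 libraries. The table held 157990953 inclusion reads in the homozygote, 157178099 in the heterozygote and 149633524 in the wild-type. The median width of the PSI interval of an isolated microexon was 5.56 points in the homozygote, 5.67 points in the heterozygote and 5.90 points in the wild-type. Heart markers were present in each library, at a summed 51240, 52963 and 45949 CPM, reads of a gene as a share of the library's reads in parts per 1000000, for the 5 cardiomyocyte markers found. Blood genes made up 62978 CPM in the homozygote, 18956 CPM in the heterozygote and 50557 CPM in the wild-type. The 4 immune markers summed to 66.0, 94.6 and 109 CPM. The 4 skeletal muscle markers summed to 1249 CPM in the homozygote, 181 CPM in the heterozygote and 145 CPM in the wild-type, nearly all of it from Acta1, skeletal α-actin, and the 3 atrial markers to 158, 128 and 86.4 CPM, nearly all from Nppa. The 4 markers of small intestine summed to 25.8, 57.2 and 61.2 CPM, of which Lgals4 gave 25.3, 56.7 and 51.5 CPM. In that list Fabp2 and Epcam had 0 reads in the homozygote and in the heterozygote, against 7.73 and 0.936 CPM in the wild-type, and Vil1 stood at 0.494, 0.496 and 1.08 CPM. The part that such differences in makeup play in the values below was not tested, and in a whole heart fewer cells of a type and less RNA per cell cannot be told apart.

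Most isolated microexons were either nearly always used or nearly always skipped. The mean PSI of the 3 libraries was over 95% for 194 of the 487 and at most 5% for 172. In 77 the PSI was 100% in each library, and in 44 it was 0% in each. A mean PSI between 10% and 90% was found for 82 isolated microexons, or 16.8%, against 2641 of the 53256 longer isolated inner parts, or 4.96%. Among the longer parts of 28 to 50 bases it was 203 of 2305, or 8.81%. The annotation placed 378 of the 487 in coding sequence, 31 in untranslated regions and 57 in transcripts without a coding sequence. An annotated transcript that skips the exon existed for 324 of them. An inner exon of at least 1 annotated transcript was matched by 406 of the 487. Some of the others, such as that of Cox7b at a mean PSI of at most 5%, are annotated only as a first or last exon. A low PSI there need not be the skipping of an inner exon.

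Lengths that are multiples of 3 were more common among the microexons than among longer parts, and most so at middle levels of inclusion. Overall 295 of the 487, or 60.6%, were multiples of 3, against 39.5% of the longer isolated inner parts. At a mean PSI over 20% and up to 80%, 49 of 56 microexons, or 87.5%, had such a length. In that class it was 96 of 126 parts of 28 to 50 bases, or 76.2%, and 53.6% of all longer parts. Over all classes it was 40.9% of the parts of 28 to 50 bases. At a mean PSI over 95% it was 103 of 194 microexons, or 53.1%, against 39.4% of the longer parts. Of the 73 coding microexons with a mean PSI between 10% and 90%, 68 kept the frame. The length was used to choose the microexons only as a range, so the frame was not fixed by that choice. Microexons held 29.7% adenine, close to the 29.0% of exons of 28 to 50 bases and above the 26.3% of exons over 100 bases. Of the microexons 71.8% ended in G, against 77.3% at 28 to 50 bases and 79.3% over 100 bases. The share ending in G was 87.8% for the 82 microexons with a mean PSI between 10% and 90%. It was not taken for longer parts at such levels, so the shares above are no match for it. Parts annotated only as a last exon are among those counted.

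**Figure D1:**
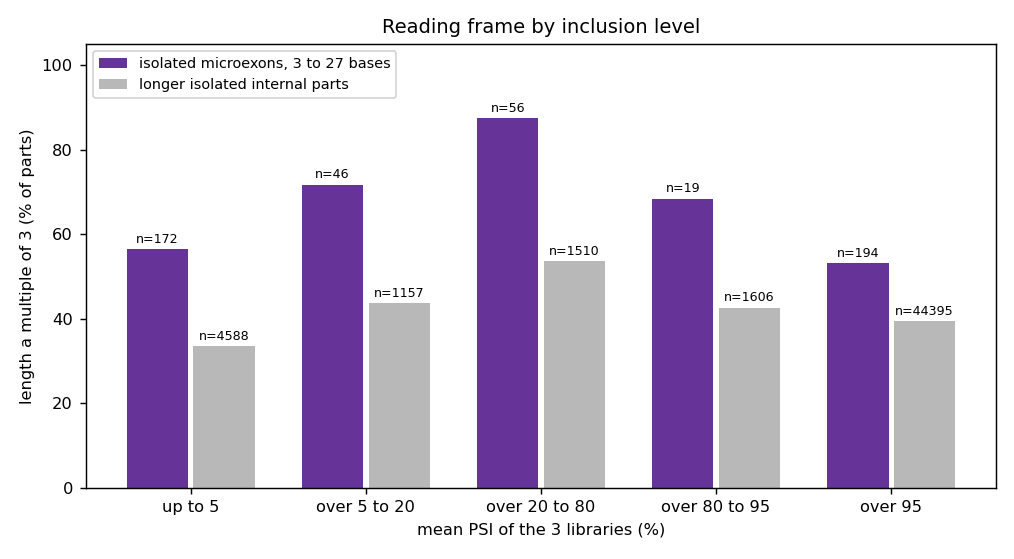
Share of parts whose length is a multiple of 3 (vertical axis, %) by the mean PSI of the 3 libraries (horizontal axis, %), for isolated microexons (purple) and longer isolated inner parts (grey), with the number of parts above each bar. The purple bars are the higher ones in each class and peak at 87.5% between 20% and 80% PSI.

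In the homozygote, 12 of the 487 microexons differed from the wild-type by 20 PSI points or more, or 2.46%, against 1.43% of all 197201 exonic parts with 20 reads in each library, and the median difference was 0. Of these, 5 were higher in the homozygote, or 1.03%, and 7 were lower, or 1.44%. Over all exonic parts 0.766% were higher and 0.665% were lower by this rule, and over the longer isolated inner parts 0.766% and 0.451%. The differences ran from -52.0 points in Dctn1 to 60.6 points in Ttn, with the middle 50% of all microexons between -0.815 and 0.207 points. In all 12 the counting interval of the difference left out 0, which together with 20 points was met by 1.11% of all exonic parts.

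In the heterozygote, 14 microexons differed from the wild-type by 20 points or more, or 2.87%, against 1.46% of all exonic parts, with a median difference of 0 over the 487. Of these, 6 were higher in the heterozygote, or 1.23%, against 0.815% of all exonic parts, and 8 were lower, or 1.64%, against 0.641%. The differences ran from -41.3 points in Rapgef2 to 81.5 points in Nbr1, and 11 of the 14, or 2.26% of the 487, had an interval without 0, against 1.13% of all exonic parts. Both comparisons use the same wild-type library, so they are not independent of each other.

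Between the mutants, 17 microexons differed by 20 points or more, or 3.49%, against 1.45% of all exonic parts. Of these, 8 were higher in the homozygote than in the heterozygote, or 1.64%, against 0.701% of all exonic parts, and 9 were lower, or 1.85%, against 0.745%. An interval without 0 was found for 15 of the 17, or 3.08% of the 487, against 1.13% of all exonic parts.

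**Figure D2:**
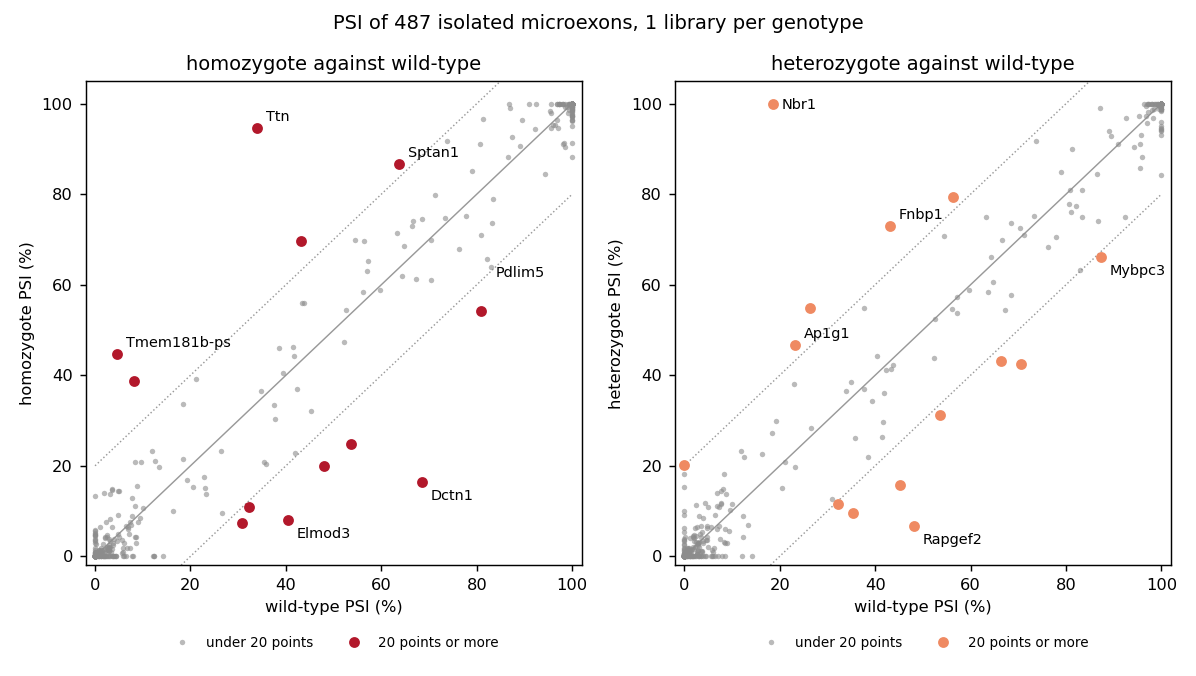
PSI of the 487 isolated microexons in the homozygote (left, vertical axis, %) and in the heterozygote (right, vertical axis, %) against the wild-type (horizontal axes, %). Each point is 1 microexon, the solid line marks equal PSI, the dotted lines 20 points to either side, and coloured points lie past them. Most points sit in the corners near 0% and 100%, and Ttn, Dctn1 and Nbr1 lie farthest from the line.

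A part near 0% or near 100% in each library cannot differ by 20 points, so the shares were also taken at middle levels. Among parts with a mean PSI between 10% and 90%, the homozygote differed from the wild-type by 20 points or more in 12 of 82 microexons, or 14.6%, against 21.4% of the longer parts. The heterozygote differed from the wild-type in 13 of 82, or 15.9%, against 20.9%. The homozygote differed from the heterozygote in 16 of 82, or 19.5%, against 24.5%. So the microexons were above the longer parts when all were counted and below them when the comparison was kept to middle levels. The mean PSI that sets these levels comes from the libraries being compared. A part otherwise near 0% or 100% can thus enter the class through the difference that is counted. Of the 648 longer parts past 20 points in the homozygote, 564 were in this class, as were all 12 microexons. The shares at middle levels therefore cannot decide whether microexons differ less often than longer parts.

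**Figure D3:**
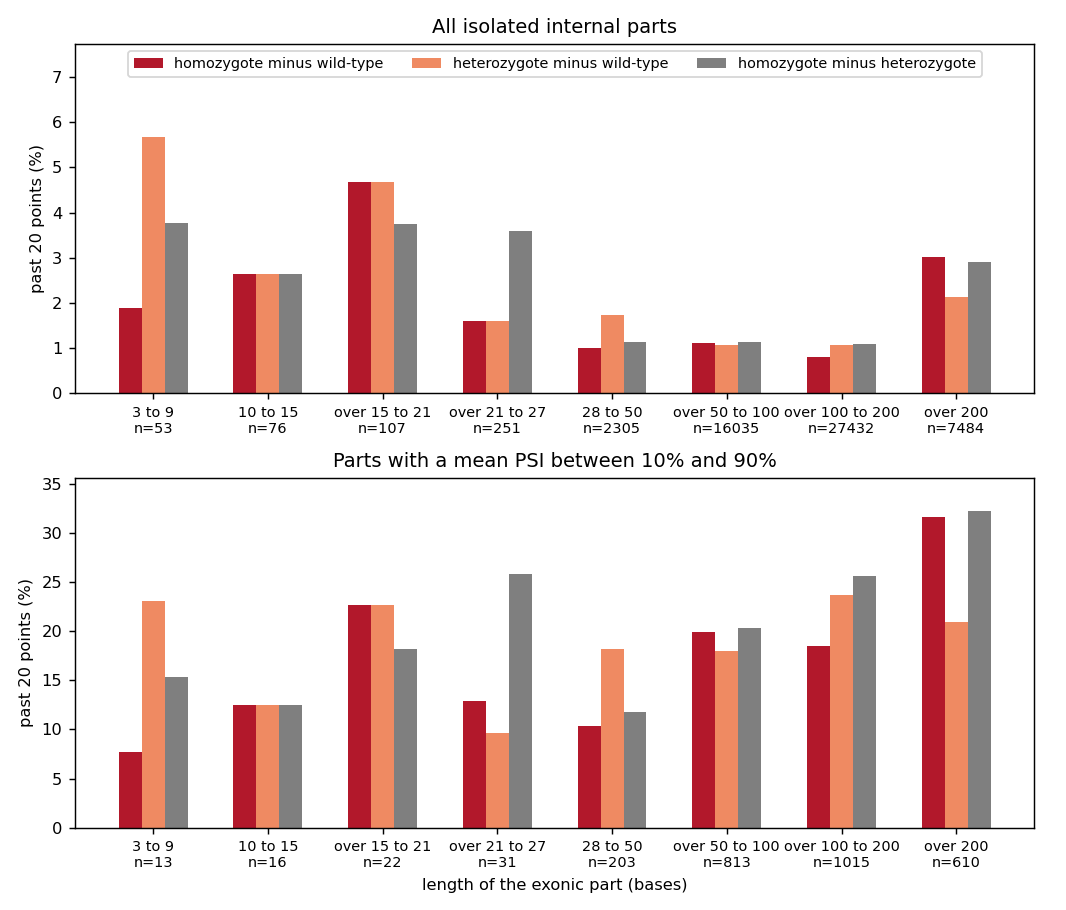
Share of isolated inner parts past 20 points (vertical axes, %) by length class (horizontal axis, bases) for the homozygote minus the wild-type (red), the heterozygote minus the wild-type (orange) and the homozygote minus the heterozygote (grey). All parts are above and parts with a mean PSI between 10% and 90% below, with the number of parts under each class. Among all parts the 4 classes up to 27 bases reach 5.66%, while among parts of middle PSI the class over 200 bases holds the longest red bar, at 31.6%.

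The largest decrease of PSI in the homozygote was in Dctn1. This gene encodes the p150 subunit of dynactin, which binds microtubules and links cargo to dynein. Its 21-base microexon had 22 inclusion and 96 exclusion reads in the homozygote, 122 and 77 in the heterozygote, and 126 and 50 in the wild-type. The PSI was 16.5% (10.6 to 24.0) in the homozygote, 57.7% (50.4 to 64.7) in the heterozygote and 68.4% (60.8 to 75.4) in the wild-type. The homozygote was the lowest, and its interval was separate from both others. The difference from the wild-type was -52.0 points (-61.1 to -41.2), and that of the heterozygote was -10.8 points (-20.9 to -0.34). The nearest longer parts on either side differed by -0.288 and 0 points in the homozygote, and the gene stood at 98.8, 97.5 and 96.3 CPM in the homozygote, the heterozygote and the wild-type. A further isolated microexon of 21 bases in Dctn1 was skipped in nearly every read, with a PSI of 0%, 0.522% and 0%.

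Sptan1 encodes αII-spectrin, which lines the inner face of the plasma membrane. Its 15-base microexon had 87 inclusion and 12 exclusion reads in the homozygote, 47 and 30 in the heterozygote, and 47 and 24 in the wild-type. The PSI was 86.7% (78.0 to 92.9) in the homozygote, 58.4% (46.5 to 69.7) in the heterozygote and 63.7% (51.3 to 75.0) in the wild-type. The homozygote alone was high. It was 23.0 points (8.70 to 36.9) above the wild-type, and the heterozygote was at -5.30 points (-21.7 to 11.5). Both nearest longer parts were at a difference of 0.

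Clasp2 encodes a protein that binds growing ends of microtubules and holds 7 isolated microexons. The one of 18 bases had 13 inclusion and 18 exclusion reads in the homozygote, 5 and 25 in the heterozygote, and 2 and 20 in the wild-type. This gave a PSI of 38.8% (22.2 to 57.8) in the homozygote, 14.9% (4.99 to 31.8) in the heterozygote and 8.07% (0.985 to 26.5) in the wild-type. The homozygote was the highest, but its interval overlapped those of both others, and the difference from the wild-type was 30.7 points, with a lower bound of 5.90. A 27-base microexon farther on had no inclusion read in the homozygote (31 exclusion reads) or in the wild-type (27), against 7 inclusion and 23 exclusion reads in the heterozygote, a PSI of 20.1% (8.36 to 37.7).

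Ptk2 encodes focal adhesion kinase. Its 9-base microexon had 8 inclusion and 61 exclusion reads in the homozygote, 8 and 57 in the heterozygote, and 27 and 53 in the wild-type. The PSI was 10.9% (4.82 to 20.5) in the homozygote, 11.6% (5.13 to 21.7) in the heterozygote and 32.3% (22.4 to 43.5) in the wild-type. Here the wild-type stood apart and the mutants lay together, at -21.3 points (-34.2 to -7.60) and -20.7 points (-33.7 to -6.55) from it. Fnbp1, which encodes an F-BAR protein that curves membranes, had the wild-type apart in the other direction. Its 15-base microexon had a PSI of 69.7% (36 inclusion and 14 exclusion reads) in the homozygote, 72.9% (27 and 9) in the heterozygote and 43.1% (22 and 26) in the wild-type. The differences from the wild-type were 26.6 points (5.41 to 45.4) for the homozygote and 29.8 points (6.46 to 49.5) for the heterozygote. Where the wild-type stands apart, both differences rest on that library, the only one with reads of Fabp2 and Epcam, and the part of this in the values was not tested.

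Ttn encodes titin, the spring protein of the sarcomere and the best known target of RBM20. Its 27-base microexon had 782 inclusion and 37 exclusion reads in the homozygote, 362 and 521 in the heterozygote, and 334 and 537 in the wild-type. The PSI was 94.6% (92.6 to 96.2) in the homozygote, 36.5% (33.4 to 39.7) in the heterozygote and 34.0% (30.9 to 37.1) in the wild-type. The homozygote stood 60.6 points (56.9 to 64.1) above the wild-type, while the interval of the heterozygote, 2.53 points (-1.91 to 6.96), included 0. The nearest longer parts differed in the homozygote by 60.2 and 55.4 points, so the microexon moved with its neighbours. Of the 12 microexons past 20 points in the homozygote, 7 had both nearest longer parts within 5 points of the wild-type, and Ttn and Tmem181b-ps were those with both neighbours past 20 points.

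Stim2, Plekha5 and Rapgef2 had lower values in both mutants than in the wild-type, at low depth. Stim2, which encodes a calcium sensor of the endoplasmic reticulum, had a 24-base microexon with a PSI of 7.33% (3 inclusion and 32 exclusion reads) in the homozygote, 12.6% (6 and 35) in the heterozygote and 30.9% (9 and 17) in the wild-type. Its difference was -23.5 points (-44.9 to -3.06) in the homozygote, and -18.2 points (-40.3 to 2.43) in the heterozygote. Few reads lie behind these values, and the 3 PSI intervals overlap. Plekha5, which encodes a protein with a PH domain, had an 18-base microexon at 24.8% (9 and 24) in the homozygote, 31.3% (14 and 27) in the heterozygote and 53.6% (29 and 22) in the wild-type. Both mutants were lower, by -28.9 points (-48.1 to -6.09) and -22.4 points (-41.8 to -0.698). Rapgef2 encodes an exchange factor for the GTPase Rap. A 19-base exon annotated in a transcript of Rapgef2 without a coding sequence was at 19.9% (6 and 21) in the homozygote, 6.77% (2 and 24) in the heterozygote and 48.1% (17 and 16) in the wild-type. The differences were -28.1 points (-50.1 to -2.29) for the homozygote and -41.3 points (-60.4 to -17.7) for the heterozygote.

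The remaining microexons past 20 points in the homozygote lie in Tmem245, Elmod3 and Tmem181b-ps. The 24-base microexon of Tmem245 was at 54.3% (31 inclusion and 22 exclusion reads) in the homozygote, against 80.8% (35 and 7) in the heterozygote and 80.8% (60 and 12) in the wild-type, a difference of -26.5 points (-43.3 to -8.33) for the homozygote. A 22-base exon in the untranslated region of Elmod3 was at 8.12% (3 and 29) in the homozygote, 44.3% (27 and 29) in the heterozygote and 40.3% (19 and 24) in the wild-type, a difference of -32.2 points (-49.4 to -12.1). In both the homozygote alone was low. Tmem181b-ps is annotated as a pseudogene and has near-identical copies, so its reads may be split among them. Its 16-base exon was at 44.7% (10 and 11) in the homozygote, 3.60% (32 and 763) in the heterozygote and 4.64% (26 and 475) in the wild-type, and the longer parts beside it differed by 41.7 and 52.1 points in the homozygote.

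**Figure D4:**
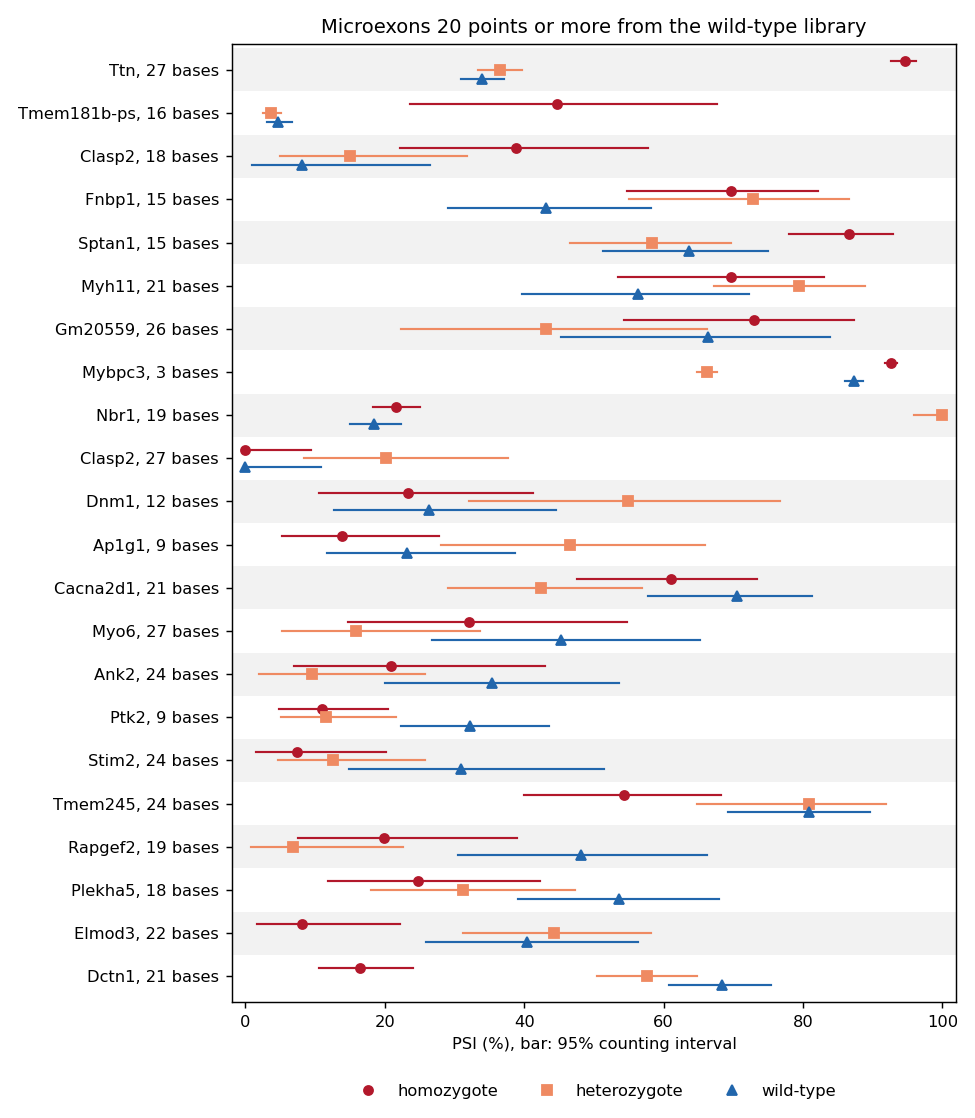
PSI (horizontal axis, %) of the 22 isolated microexons with the homozygote or the heterozygote 20 points or more from the wild-type, with the homozygote as red circles, the heterozygote as orange squares and the wild-type as blue triangles. Bars are 95% counting intervals. The rows run from the largest increase of the homozygote over the wild-type, Ttn at 60.6 points, to the largest decrease, Dctn1 at -52.0 points.

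In the heterozygote the farthest value was that of Nbr1, which encodes a receptor of selective autophagy. Its 19-base coding microexon had 136 inclusion and 432 exclusion reads in the homozygote, inclusion reads alone in the heterozygote, and 88 inclusion and 338 exclusion reads in the wild-type. The PSI was 21.5% in the homozygote, 100% (95.9 to 100) in the heterozygote and 18.5% (15.1 to 22.3) in the wild-type. The homozygote was thus near the wild-type, at 3.04 points (-1.96 to 7.92), and the heterozygote 81.5 points (75.9 to 84.9) above it. The inclusion reads of the heterozygote lay between those of the other libraries in number, and it had 0 exclusion reads. The gene stood at 67.6, 59.3 and 58.6 CPM in the homozygote, the heterozygote and the wild-type, and the nearest longer parts differed by 0.888 and 0.205 points in the heterozygote.

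Mybpc3 encodes cardiac myosin-binding protein C and holds a pair of 3-base microexons, both deeply covered. The downstream one, CAA, had 3694 inclusion and 286 exclusion reads in the homozygote, 2898 and 1446 in the heterozygote, and 2467 and 350 in the wild-type. Its PSI was 92.7% (91.8 to 93.5) in the homozygote, 66.2% (64.8 to 67.6) in the heterozygote and 87.3% (86.0 to 88.5) in the wild-type. The upstream one, AGA, was at 94.4% in the homozygote, 74.9% in the heterozygote and 92.3% in the wild-type. The heterozygote was low in both, by -21.1 points (-23.0 to -19.2) and -17.4 points (-18.8 to -15.9). The longer parts beside them were lower in the heterozygote too, by -22.3 and -20.6 points around the downstream microexon and by -17.4 and -18.7 points around the upstream one, so the microexons did not differ from the exons around them.

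Microexons of Cacna2d1, Ank2 and Myo6 had a lower PSI in the heterozygote, at low depth. Cacna2d1 encodes the α2δ-1 subunit of voltage-gated calcium channels. Its 21-base microexon had a PSI of 61.0% (40 inclusion and 22 exclusion reads) in the homozygote, 42.4% (24 and 28) in the heterozygote and 70.5% (50 and 18) in the wild-type. The heterozygote was lower by -28.1 points (-45.3 to -8.83), and the interval of the homozygote, -9.50 points (-26.7 to 8.26), included 0. Ank2 encodes ankyrin-B, which anchors ion transporters. Its 24-base microexon was at 20.9% (5 and 16) in the homozygote, 9.53% (3 and 24) in the heterozygote and 35.4% (13 and 20) in the wild-type, a difference of -25.9 points (-45.6 to -3.52) for the heterozygote. Myo6, which encodes a myosin that moves toward the minus end of actin, had a 27-base microexon at 32.1% (8 and 14) in the homozygote, 15.8% (5 and 22) in the heterozygote and 45.3% (14 and 14) in the wild-type, a difference of -29.4 points (-52.0 to -3.70) for the heterozygote. The heterozygote was the lowest library in all 3 genes, and the homozygote lay between it and the wild-type.

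Higher values in the heterozygote were found in Dnm1, Ap1g1 and Myh11. Dnm1 encodes dynamin 1, which pinches off vesicles, and its 12-base microexon was at 23.4% (8 inclusion and 24 exclusion reads) in the homozygote, 55.0% (12 and 9) in the heterozygote and 26.4% (9 and 23) in the wild-type. Ap1g1 encodes γ-adaptin of the AP-1 coat, and its 9-base microexon was at 13.8% (6 and 35) in the homozygote, 46.6% (14 and 15) in the heterozygote and 23.2% (10 and 31) in the wild-type. In these genes the interval of the heterozygote minus the wild-type included 0, with bounds of -0.647 and 54.2 points in Dnm1 and of -0.746 and 46.0 points in Ap1g1. Myh11 encodes smooth muscle myosin heavy chain, and its 21-base microexon was at 69.6% (32 and 12) in the homozygote, 79.5% (54 and 12) in the heterozygote and 56.3% (24 and 16) in the wild-type. The heterozygote was 23.1 points (3.04 to 42.2) above the wild-type. All 4 smooth muscle and pericyte markers were highest in the heterozygote, with a summed 215 CPM in the homozygote, 275 CPM in the heterozygote and 175 CPM in the wild-type, and their part in the Myh11 value was not tested. The last microexon past 20 points, in a transcript of Gm20559 without a coding sequence, was at 73.0%, 43.1% and 66.4% in the homozygote, the heterozygote and the wild-type. Its interval of the heterozygote minus the wild-type also included 0, and the exon is annotated only as the last of its transcript.

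Most of the 17 microexons that set the homozygote against the heterozygote are described above. The others are in Mtmr1, Trappc9, Arhgap23 and Fam168a, of which the last 3 were named after their values were seen. Mtmr1 encodes a phosphoinositide phosphatase, and its 24-base microexon was included in all 65 reads of the homozygote, a PSI of 100% (93.5 to 100), against 74.1% (34 inclusion and 10 exclusion reads) in the heterozygote and 86.8% (39 and 5) in the wild-type. Trappc9 encodes a subunit of a vesicle tethering complex, and its 27-base microexon was at 46.0% in the homozygote, 22.0% in the heterozygote and 38.5% in the wild-type. Both were higher in the homozygote than in the heterozygote, by 25.9 points (11.7 to 41.9) and 24.0 points (6.79 to 39.9). The intervals for Arhgap23, at -20.5 points (-42.0 to 2.18), and for Fam168a, at -24.4 points (-47.4 to 2.43), included 0.

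An order by genotype, with 3 separate intervals and the heterozygote in between, was met by 3 of the 487 microexons, or 0.616%, against 0.172% of all exonic parts. Pdlim5 encodes an adaptor with PDZ and LIM domains found at the Z-disc. Its 15-base microexon had 2522 inclusion and 1185 exclusion reads in the homozygote, 2717 and 707 in the heterozygote, and 2221 and 432 in the wild-type. The PSI was 65.6% (64.0 to 67.2) in the homozygote, 77.5% (76.0 to 78.9) in the heterozygote and 82.2% (80.6 to 83.7) in the wild-type. Against the wild-type library it was lower, at -4.67 points (-6.77 to -2.54) in the heterozygote and -16.6 points (-18.7 to -14.4) in the homozygote. The other 2 microexons of this kind lie in Ldb3, which encodes another Z-disc adaptor of this family, and ran the other way. The 15-base one had a PSI of 14.1%, 4.56% and 1.79% and the 23-base one of 13.8%, 4.95% and 3.23% in the homozygote, the heterozygote and the wild-type. The nearest longer part on the side that faces the other microexon differed by 11.8 points between the homozygote and the wild-type in both cases.

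Besides those past 20 points, 19 microexons differed by 10 to 20 points between the homozygote and the wild-type with an interval that left out 0, or 3.90% of the 487, against 1.18% of all exonic parts. Among them are those of Pdlim5, Ldb3 and Mtmr1 described above. In others the homozygote alone stood off. Arntl, which encodes the clock transcription factor BMAL1, had a 21-base microexon at 9.55% in the homozygote, 28.4% in the heterozygote and 26.6% in the wild-type. Vti1a, which encodes a SNARE protein, had a 21-base microexon at 14.7%, 4.33% and 3.60% in the homozygote, the heterozygote and the wild-type. In both genes the heterozygote was within 2 points of the wild-type.

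Both mutants lay together, away from the wild-type, in Lama2, Lrrfip1, Fcho2 and Papss2. Lama2, which encodes the α2 chain of laminin, had a 12-base microexon at 91.8% in the homozygote, 91.7% in the heterozygote and 73.8% in the wild-type. Lrrfip1 had an 18-base microexon at 69.9%, 70.7% and 54.5% in the homozygote, the heterozygote and the wild-type. A 12-base microexon of Fcho2, which encodes a protein that starts clathrin-coated pits, had no inclusion read among 68 in the homozygote or among 44 in the heterozygote, against 8 of 61 in the wild-type. A 15-base microexon of Papss2, whose enzyme activates sulfate, had none among 42 and 39 reads in the homozygote and the heterozygote, against 7 of 45 in the wild-type. The zero counts still allow a PSI of up to 4.85% and 7.41% in Fcho2 and of up to 7.60% and 8.16% in Papss2. In Sgce, which encodes ε-sarcoglycan of the dystrophin complex, the heterozygote lay between the other libraries. It was at 96.6% in the homozygote, 90.0% in the heterozygote and 81.3% in the wild-type for its 27-base microexon, with intervals that overlapped between neighbours in this order.

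Several isolated microexons of 1 gene, which need not lie in the same transcript, were found in 57 genes, and 12 of them had 3 or more. Trdn encodes triadin, which anchors calsequestrin to the calcium release channel, and held 7 microexons of 18 to 27 bases, all at 87.1% or more in every library. One of 27 bases was at 99.0% in the homozygote and 99.0% in the heterozygote, against 87.1% (79.7 to 92.5) in the wild-type, and its neighbouring longer part upstream differed by 13.6 points in the same direction. The 18-base one was at 91.4% (87.5 to 94.4) in the homozygote, 96.7% (94.1 to 98.4) in the heterozygote and 98.3% (96.2 to 99.5) in the wild-type. Ryr2, the calcium release channel, had 4, of which those of 21 and 15 bases were included in at least 95.3% and that of 7 bases in at most 0.930% in each library. Only its 24-base microexon differed by more than 10 points between the homozygote and the wild-type, at 11.3 points (1.78 to 21.1). Pdlim5 had 5, and apart from the 15-base one described above they differed by at most 2.37 points between the homozygote and the wild-type. Of the 7 in Clasp2, 6 were at most at 38.8% and the 3-base one at 95.9% or more in every library. Col6a1, which encodes a chain of collagen VI, had 5 that were included in at least 99.5%.

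**Figure D5:**
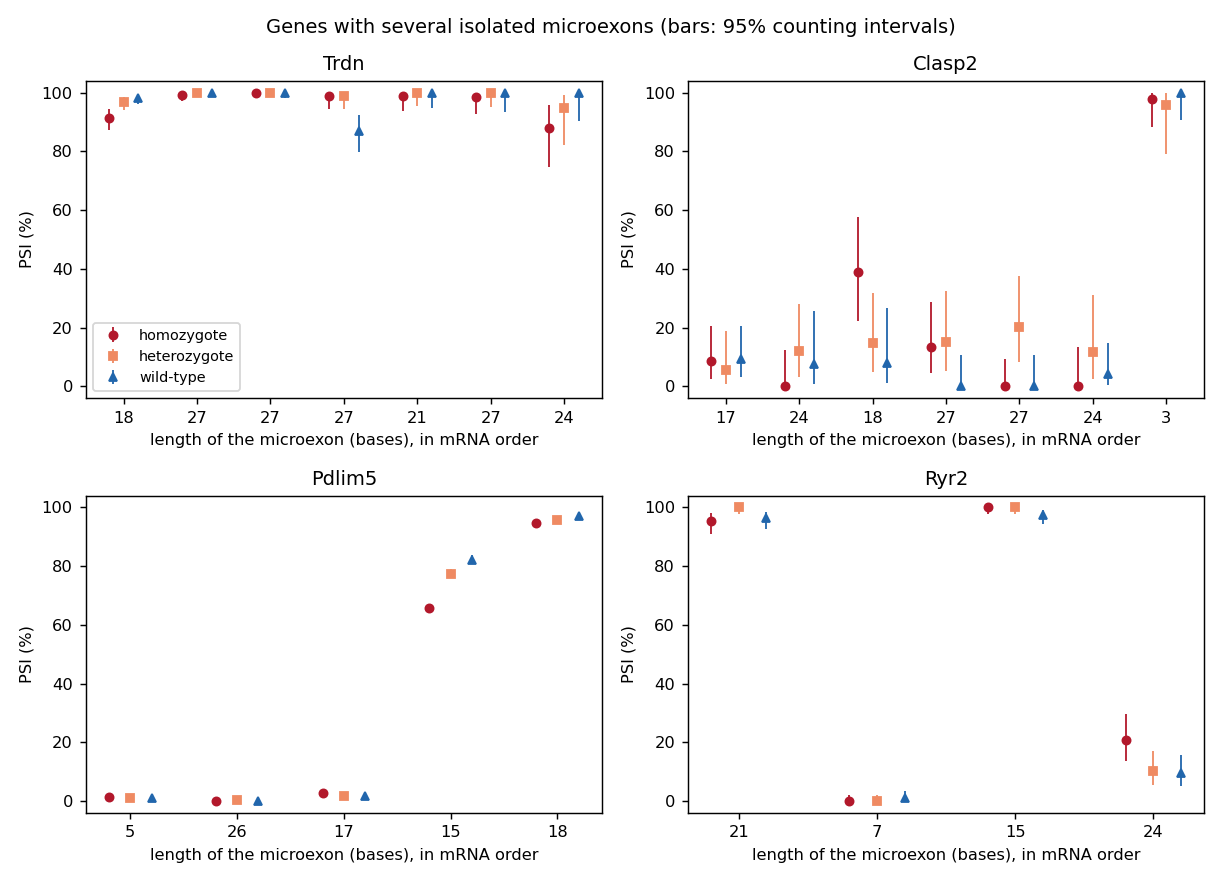
PSI (vertical axes, %) of each isolated microexon of Trdn, Clasp2, Pdlim5 and Ryr2, in the order of transcription along the gene, with its length in bases on the horizontal axis, for the homozygote (red circles), the heterozygote (orange squares) and the wild-type (blue triangles). Bars are 95% counting intervals. In Pdlim5 only the 15-base microexon is spread out by genotype, at 65.6%, 77.5% and 82.2%, and in Clasp2 the 18-base one reaches 38.8% in the homozygote while the 3-base one lies at 95.9% or more.

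Among other deeply covered microexons, those of Tnnt2, Psap and Atp2a2 differed little between genotypes. In Tmed2 and Acyp2 the homozygote alone stood higher. Tnnt2 encodes cardiac troponin T. Its 9-base microexon was at 61.8% (61.5 to 62.1) in the homozygote, 66.0% (65.8 to 66.3) in the heterozygote and 64.3% (64.0 to 64.6) in the wild-type, from 106748, 126734 and 108838 reads in the same libraries. The intervals were separate, and the differences from the wild-type were -2.46 points for the homozygote and 1.71 points for the heterozygote. Psap encodes prosaposin, the precursor of activators of lysosomal lipid breakdown, and its 9-base microexon was at 54.3%, 52.3% and 52.6% in the homozygote, the heterozygote and the wild-type. Tmed2 encodes a cargo receptor of the early secretory pathway, and its 21-base microexon was at 65.2% (62.7 to 67.7) in the homozygote, 57.2% (54.6 to 59.8) in the heterozygote and 57.2% (54.8 to 59.6) in the wild-type. Acyp2 encodes an acylphosphatase, and its 17-base microexon had 2 exclusion reads in the homozygote, against 316 in the heterozygote and 256 in the wild-type, a PSI of 99.9%, 91.0% and 90.9%. Atp2a2 encodes the calcium pump of the sarcoplasmic reticulum, and its 18-base microexon was at 99.8% in the homozygote and 100% in the other libraries.

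The microexons past 20 points were counted in lists of genes known for short exons or for the heart. As a share they are read beside 2.46% of the 487 in the homozygote and 2.87% in the heterozygote. The lists were chosen with earlier results known, so nothing particular to a list is drawn from its share. Of 50 sarcomere, Z-disc and costamere genes, 10 held 19 microexons, of which 1 (Ttn) was higher and 0 lower in the homozygote, and 0 higher and 1 lower (Mybpc3) in the heterozygote, or 5.26% in either. Of 47 cytoskeleton and adhesion genes, 14 held 30, of which 3 were higher (Sptan1, Fnbp1 and Clasp2) and 1 lower (Ptk2) in the homozygote, or 13.3%, and 2 higher (Fnbp1 and Clasp2) and 1 lower (Ptk2) in the heterozygote, or 10%. Of 32 calcium and excitation genes, 8 held 21, of which 0 passed in the homozygote, and 2 were lower (Ank2 and Cacna2d1) in the heterozygote, or 9.52%. Of 74 membrane traffic and signalling genes, 14 held 17, with 1 lower (Rapgef2) in the homozygote, or 5.88%, and 1 higher (Dnm1) and 1 lower (Rapgef2) in the heterozygote, or 11.8%. Of 55 transcription, chromatin and RNA genes, 10 held 12, and 0 passed in either. The other 388 microexons were in none of these lists, and among them 1 was higher (Tmem181b-ps) and 5 were lower (Dctn1, Stim2, Plekha5, Tmem245 and Elmod3) in the homozygote, or 1.55%. The median of the homozygote minus the wild-type was 0.252 points for the cytoskeleton list, -0.213 points for the calcium list and 0 for the others, against 0 over all 487.

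Microexons at middle levels in the last list, named after their values were seen, show what 0 calls look like there. Mef2a and Mef2d encode transcription factors of muscle. The 24-base microexon of Mef2a was at 74.7%, 75.2% and 73.3%, and the 21-base one of Mef2d at 71.4%, 74.9% and 63.2%, in the homozygote, the heterozygote and the wild-type.

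Of 15 factors known to act on short exons, 14 were found with reads in these hearts. Rbm20 itself stood at 40.6 CPM in the homozygote, 36.0 CPM in the heterozygote and 37.2 CPM in the wild-type. Srrm4, the neuronal activator of microexons, stood at 5.49, 4.14 and 6.35 CPM, and Rbfox1, which promotes exons of muscle and neurons, at 8.51, 11.2 and 12.2 CPM in the same libraries. Ptbp1, which represses many neuronal and muscle exons, stood at 21.1, 25.1 and 26.3 CPM, and Mbnl1, the muscleblind factor of striated muscle, at 88.0, 92.3 and 93.9 CPM. Nova2, a neuronal factor, was near the lower end, at 1.01, 1.40 and 2.14 CPM. CPM sum reads over whole genes and are not divided by length, so they compare a gene between libraries and not genes with each other. Snap25 and the other neuronal markers summed to 11.7, 11.6 and 10.2 CPM.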

How the data were processed

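RNA from mouse hearts was sequenced by the authors from SMART-seq v4 and Nextera XT libraries. Per the labels, reads were trimmed with cutadapt 1.1 and Trimmomatic 0.32 and aligned with TopHat2 2.0.14 and Bowtie 1.1.1 to the GRCm38 build; the annotation release and the counting program are not given in the sources used here. The deposited table holds, for each exonic part, unnormalised counts of inclusion reads, counts of exclusion reads and the PSI as a fraction, in which the authors divided inclusion reads by length plus 129 and exclusion reads by 129 positions; values recomputed from the counts differed from it by at most 5e-05 points. Reads across an exon of a few bases are hard for an aligner to place, and the table does not show how many were lost. Not used were 3 PSI columns of another age with no sample record and 2 columns of the authors' differences between genotypes.

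PSI is given in percent, with differences as homozygote or heterozygote minus wild-type, or as homozygote minus heterozygote. Exact Clopper-Pearson intervals of the inclusion share at the 95% level were carried to PSI and combined for differences. Members had at least 20 reads in each library; 1 part just inside had 20 reads and a mean PSI of 1.17%, and 8 just outside had 19 reads and a median of 1.75%, none past 20 points. Named are microexons past 20 points against the wild-type, those ordered by genotype, those of 10 to 20 points with an interval without 0, those in genes the study names, and the 5 with most reads per PSI class. CPM were inclusion reads of parts of 1 gene per 1000000 of the library. Of 487 microexons, 485 matched an exon of GENCODE M21 exactly. As an inner exon of at least 1 transcript 406 were found, and those annotated only as a first or last exon were kept. The members, lists and rules were chosen with earlier results of these data known. Scripts were tested on simulated data. Alternatives were other sizes, read minimums and lengths, PSI without length normalisation, 1 microexon per gene and, chosen after seeing the data, coding inner exons and genes of like CPM. Python 3.11.15, numpy 2.4.6, pandas 2.3.3, scipy 1.17.1 and matplotlib 3.10.9 were used.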

Additional observations from a re-analysis of the deposited data

How the results depend on the processing

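The counts of microexons past 20 points were 5 higher and 7 lower for the homozygote minus the wild-type, 6 and 8 for the heterozygote minus the wild-type, and 8 and 9 for the homozygote minus the heterozygote. In the same order they were 24 and 20, 17 and 20, and 24 and 17 at 10 points, and 3 and 2, 1 and 1, and 2 and 5 at 30 points. With at least 50 reads in each library they were 2 and 2, 1 and 3, and 4 and 2, with at least 100 reads 1 and 1, 1 and 1, and 2 and 2, and with lengths of 3 to 15 bases 2 and 1, 3 and 2, and 2 and 2. The share of lengths that are multiples of 3, 60.6%, was 66.7% for lengths of 3 to 15 bases and 66.4% for coding inner exons, an alternative chosen after seeing the data. The median differences were 0 under every alternative run, and the other alternatives left each count within 1.5 times of its value. Without length normalisation, 187 differences of named microexons moved by less than their counting error and 5 moved by more. A sign could not change, because the same length and positions apply to every library. The minimum of 100 reads kept 228 of the 487 microexons, and each count of 1 there is 0.439% of them. No paired analysis was possible because each genotype had 1 library. Motifs of the flanking introns were not run because no genome sequence was used here.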
